A study of Mus musculus with 89 samples.

Results

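Cytoplasmic dynein was followed in mouse embryonic forebrain through 10 genes: the 4 copies of the Tctex-type light chain gene Dynlt1 (Dynlt1a, Dynlt1b, Dynlt1c and Dynlt1f) and 6 other chains (Dynlt3, Dynll1, Dynll2, Dynlrb1, Dync1h1 and Dync1i1). A gene was taken when a probe set of the array carried its symbol and no other, and all 10 genes were found, each with 1 probe set, among 22206 probe sets in all. The rule for the list used gene names and chromosomal position. The genes were nevertheless chosen with earlier results of these data known.

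Cytoplasmic dynein 1 is the motor that carries cargo along microtubules toward their minus ends, which in axons means toward the cell body. A pair of heavy chains generates force, intermediate and light intermediate chains sit on the tail, and 3 classes of light chain (Tctex, LC8 and roadblock) bind the intermediate chains. In developing forebrain the motor is known for moving nuclei of progenitors and migrating neurons and for retrograde transport in axons.

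RNA from the forebrain of 89 untreated embryos, taken at embryonic day 18.5, was hybridised to Clariom S arrays, 1 array per embryo. Ts65Dn embryos (n = 23) carry an extra chromosome in which the end of chromosome 16 (Mmu16), where many genes have orthologues on human chromosome 21, is joined to the start of chromosome 17 (Mmu17), whose genes there have none, and EupTs65Dn embryos (n = 18) are their euploid littermates. Ts66Yah embryos (n = 24) carry the extra Mmu16 part without the Mmu17 part, and EupTs66Yah embryos (n = 24) are euploid embryos of that colony. Both colonies were kept on a mixed B6 and C3H background. Ts65Dn males are infertile, so the extra chromosome came from the dam alone. The Ts66Yah colony descends from a few founder females and was expanded by in vitro fertilization. Each colony gave 6 litters, and the labels assigned 13 females and 10 males to Ts65Dn, 9 and 9 to EupTs65Dn, 13 and 11 to Ts66Yah, and 11 and 13 to EupTs66Yah. The series addresses what the extra Mmu17 genes, which are not orthologues of human chromosome 21 genes, add to the Ts65Dn model. The 4 Dynlt1 copies lie on that Mmu17 part. The other 6 genes lie on chromosomes X (Dynlt3), 5 (Dynll1), 11 (Dynll2), 2 (Dynlrb1), 12 (Dync1h1) and 6 (Dync1i1), and no line carries an extra copy of them.

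Array means were 5.26 to 5.33 on the log2 scale in the Ts65Dn colony and 6.35 to 6.41 in the Ts66Yah colony, so each trisomic group was set only against the euploid embryos of its own colony. One array, EupTs66Yah replicate 16, stood apart, with a mean of 6.05 and a standard deviation over probe sets of 1.13, against at least 2.23 on the other arrays of its group. The main Ts66Yah results are given with and without this low-spread array. By the mean of 60 Mmu16 genes, 4 arrays lay nearer to the other genotype of their colony: Ts65Dn replicate 18, Ts66Yah replicates 13 and 24, and EupTs66Yah replicate 24. Y-linked genes went against the sex label in 17 arrays. All arrays were kept under their labels. Forebrain markers were present: the mean over 8 of them was 8.18 to 8.60 on the log2 scale in Ts65Dn arrays and 8.27 to 8.70 in EupTs65Dn arrays. The mean over 7 midbrain and hindbrain markers had a median of 4.08 over Ts65Dn arrays and 3.99 over EupTs65Dn arrays, below the array means of that colony. In the Ts66Yah colony the forebrain mean had a median of 9.08 in Ts66Yah and 9.12 in EupTs66Yah. The midbrain and hindbrain mean there had a median of 6.3996 in Ts66Yah and 6.24 in EupTs66Yah, close to the array means of 6.35 to 6.41. The check on midbrain and hindbrain markers was therefore less clear in the Ts66Yah colony.

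The Dynlt1 copies are recent duplicates of one another, and a probe set of 1 copy may also bind transcripts of another. Their likeness is visible in the sequence upstream of the copies, which RefSeq (GRCm38.p6) gives in the table used here for 2 of the 4 copies. The Dynlt1c window is chr17:6601529-6601778 on the plus strand, and the Dynlt1f window is chr17:6655966-6656189 on the minus strand. Both are printed 5′ to 3′ and stop before the annotated gene, and capitals mark the longest run of bases they share.
Dynlt1c: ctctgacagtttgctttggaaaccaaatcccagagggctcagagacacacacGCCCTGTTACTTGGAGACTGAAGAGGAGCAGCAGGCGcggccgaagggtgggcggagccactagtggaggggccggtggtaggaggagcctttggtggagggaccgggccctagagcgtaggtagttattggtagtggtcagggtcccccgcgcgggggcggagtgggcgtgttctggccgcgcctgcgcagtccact
Dynlt1f: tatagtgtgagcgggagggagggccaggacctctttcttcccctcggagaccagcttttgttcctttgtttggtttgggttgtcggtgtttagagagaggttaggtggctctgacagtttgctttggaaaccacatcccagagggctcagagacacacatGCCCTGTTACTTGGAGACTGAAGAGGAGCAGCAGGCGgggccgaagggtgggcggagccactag
The shared run is 37 bases long. It sits in an overlap of 116 bases, the start of the Dynlt1c window and the end of the Dynlt1f window, of which 113 (97.4%) are identical. Counted from 1 at the 5′ end of the overlap, with the Dynlt1c base first, the differences are A26C, C52T and C90G. The motif GGGCGG, searched on both strands, occurs 2 times in the Dynlt1c window and 1 time in the Dynlt1f window. It occurs in 32.7% of all RefSeq windows cut to 250 bases and in 29.1% of those cut to 224 bases. CCAAT occurs 1 time in the Dynlt1c window and 0 times in the Dynlt1f window, against 33.8% and 31.5% of all windows of those lengths.

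All 4 Dynlt1 copies were higher in Ts65Dn forebrains than in EupTs65Dn forebrains, by 1.24-fold to 1.37-fold. The 6 chains on other chromosomes did not pass the test, which called 0.491% of all probe sets. Dynlt1 encodes a light chain that joins the intermediate chains and binds cargo proteins. Dynlt1a lay between 10.68 and 11.32 (median 10.9997) in Ts65Dn, against 10.36 to 10.92 (median 10.69) in EupTs65Dn, on the log2 signal scale. The groups overlapped, and 16 of 23 Ts65Dn embryos were above the highest EupTs65Dn embryo. Dynlt1b lay between 10.11 and 10.62 (median 10.38) in Ts65Dn, against 9.62 to 10.26 (median 9.94) in EupTs65Dn. Here 18 of 23 Ts65Dn embryos were above every EupTs65Dn embryo, and all 23 were above the EupTs65Dn median. Dynlt1c lay between 9.91 and 10.70 (median 10.47) in Ts65Dn, against 9.70 to 10.35 (median 9.99) in EupTs65Dn. For this copy 19 of 23 Ts65Dn embryos were above every EupTs65Dn embryo. Dynlt1f lay between 10.68 and 11.38 (median 11.13) in Ts65Dn, against 10.44 to 11.03 (median 10.74) in EupTs65Dn. Again 16 of 23 Ts65Dn embryos lay above every EupTs65Dn embryo.

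**Figure D1:**
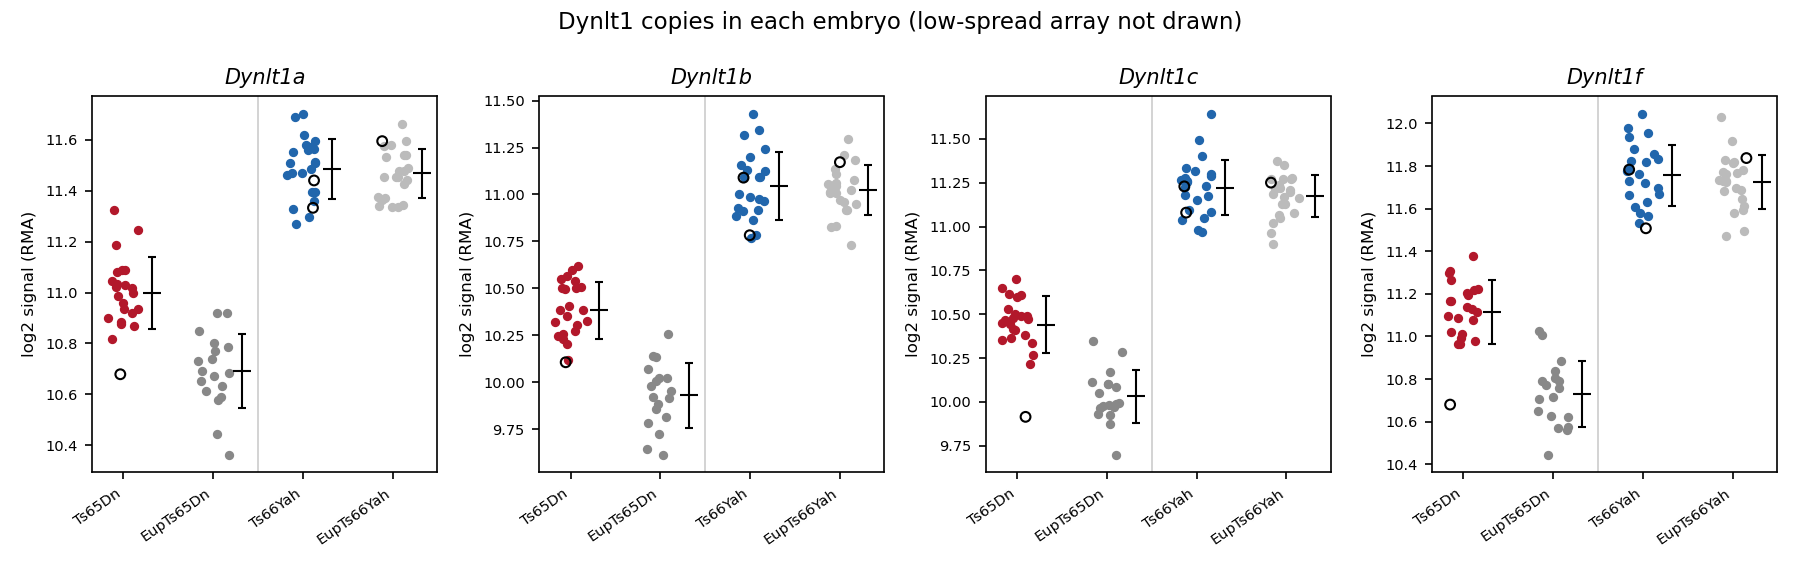
RMA log2 signal (vertical axis) of each Dynlt1 copy in every embryo of the 4 groups. Points are embryos, bars are the mean and SD, open circles are the 4 arrays at the Mmu16 level of the other genotype, and the low-spread array is not drawn. In Ts65Dn, 16 to 19 of 23 embryos lie above every EupTs65Dn embryo, depending on the copy, while Ts66Yah and EupTs66Yah overlap. Levels should not be compared between colonies or between panels.

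The lowest Ts65Dn value of every copy came from 1 embryo, replicate 18, with 10.68 for Dynlt1a, 10.11 for Dynlt1b, 9.91 for Dynlt1c and 10.68 for Dynlt1f. This is the array labelled Ts65Dn whose Mmu16 genes lay at the euploid level. For Dynlt1a, Dynlt1c and Dynlt1f it fell below the EupTs65Dn median. Without it, the lowest Ts65Dn values were 10.82 for Dynlt1a, 10.12 for Dynlt1b, 10.22 for Dynlt1c and 10.96 for Dynlt1f.

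In log2 change between group means, Dynlt1a was 0.31 ± 0.049 (SE) higher in Ts65Dn, or 1.24-fold, with an adjusted p of 7.3e-05 in limma. Dynlt1b had the highest change of the copies, 0.45 ± 0.054, or 1.37-fold, with an adjusted p of 2.1e-07 in limma. Dynlt1c was 0.41 ± 0.053 higher, or 1.33-fold, and Dynlt1f 0.39 ± 0.051 higher, or 1.31-fold, with adjusted p of 9.4e-07 and 1.7e-06 in limma. So 4 of the 10 genes passed, all 4 higher in Ts65Dn, in a comparison that called 0.491% of all probe sets in either direction 0.459% as higher and 0.0315% as lower. A call means an adjusted p (Benjamini-Hochberg over all 22206 probe sets) under 10%, the threshold the series states. The upper ends of the 95% intervals were 0.40 for Dynlt1a, 0.56 for Dynlt1b, 0.52 for Dynlt1c and 0.49 for Dynlt1f. Each is below 0.58, the log2 of the 1.5 ratio that 3 gene copies have to 2. These fits keep Ts65Dn replicate 18. Without it, the difference in the mean of the 4 copies was 0.41, against 0.39 with it. Summarised array signals can also understate fold changes, and the cause of the gap to 0.58 was not tested. Bulk tissue cannot tell more expressing cells from more RNA per cell, and the 4 tests are not independent where probe sets share targets.

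**Figure D2:**
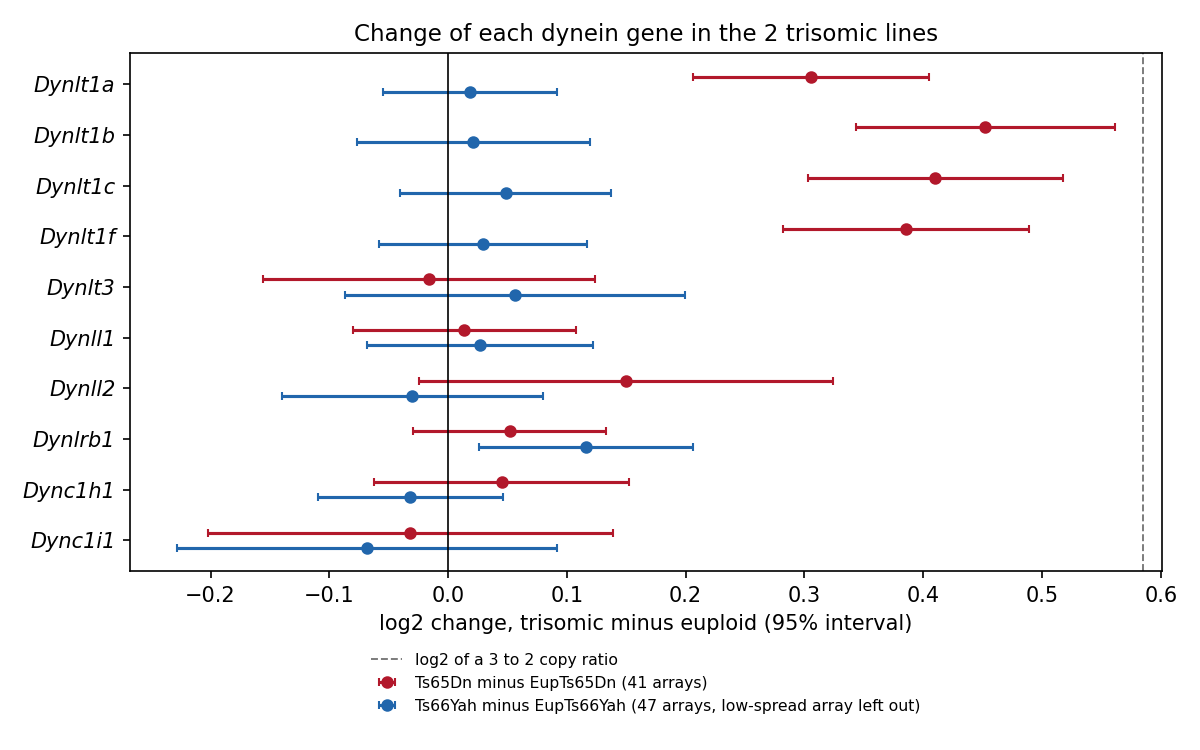
Log2 change of each of the 10 genes (horizontal axis), trisomic minus euploid, with 95% intervals, in the Ts65Dn comparison (41 arrays) and in the Ts66Yah comparison without the low-spread array (47 arrays). The dashed line is at 0.58, the log2 of 3 copies over 2. The Ts65Dn intervals of the 4 Dynlt1 copies lie between 0 and that line, and their Ts66Yah intervals include 0.

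The size of the change in Ts65Dn was also compared between copies, a comparison chosen after the values of the copies had been seen. For each pair, the difference between their log2 values in an embryo was compared between genotypes by permutation (two-sided, 100000 resamples), with p adjusted over 6 pairs. Embryos were shuffled across litters, and no test within litters was run for the pairs. The change of Dynlt1a was below that of Dynlt1b by -0.15 ± 0.035 (SE, adjusted p = 0.00132, permutation test), with 21 of 23 Ts65Dn embryos below the EupTs65Dn median of the difference. It was also below that of Dynlt1c by -0.10 ± 0.034 (adjusted p = 0.0129, permutation test) and below that of Dynlt1f by -0.080 ± 0.033 (adjusted p = 0.0414, permutation test). In both of these pairs 20 of 23 Ts65Dn embryos were below the EupTs65Dn median. Dynlt1b exceeded Dynlt1f by 0.067 ± 0.028 (adjusted p = 0.0419, permutation test), with 16 of 23 Ts65Dn embryos above the EupTs65Dn median. The pairs Dynlt1b with Dynlt1c (0.042 ± 0.033) and Dynlt1c with Dynlt1f (0.025 ± 0.027) did not pass, with adjusted p of 0.246 and 0.359 in the permutation test. In the Ts66Yah comparison 0 of 6 pairs passed, with adjusted p from 0.551 to 0.792 by permutation with all arrays and from 0.806 to 0.921 without the low-spread array. How far each probe set separates the copies was not tested, so these differences describe the probe sets in these embryos.

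Averaged over the 4 copies in each embryo, Dynlt1 signal was 10.73 ± 0.14 in Ts65Dn and 10.35 ± 0.15 in EupTs65Dn (SD). The difference was 0.39 ± 0.044 (SE), or 1.31-fold, with a permutation p of 1e-05, the smallest that 100000 resamples can give. The groups overlapped: 19 of 23 Ts65Dn embryos were above the highest EupTs65Dn embryo, and 22 of 23 were above the EupTs65Dn median. In turn, 9 of 18 EupTs65Dn embryos were below the lowest Ts65Dn embryo, and 16 of 18 were when replicate 18 was left out. The same direction held in each of the 6 litters. The difference was 0.50 in litter TS11, 0.45 in TS42, 0.43 in TS125, 0.38 in TS113, 0.28 in TS137 and 0.25 in TS18. Litter TS18 is the one that holds Ts65Dn replicate 18.

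**Figure D3:**
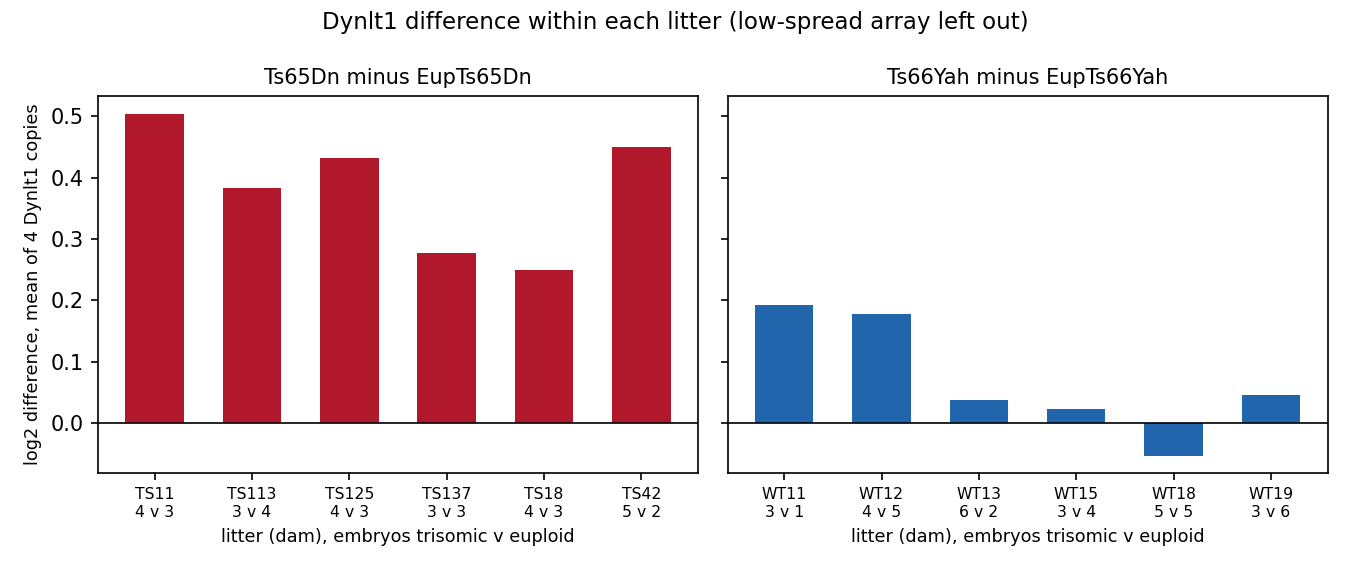
Difference in the mean log2 signal of the 4 Dynlt1 copies within each litter (vertical axis), trisomic minus euploid, with the number of embryos of each genotype under the litter's name and the low-spread array left out. Bars have no error of their own, since litters hold 1 to 6 embryos of a genotype. The 6 Ts65Dn litters run from 0.25 to 0.50, and 5 of 6 Ts66Yah litters lie above 0, at 0.023 to 0.19.

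In Ts66Yah, which lacks the extra Mmu17 part, none of the 10 genes passed the test. Dynlt1a lay between 11.27 and 11.70 (median 11.50) in Ts66Yah, against 11.33 to 11.66 (median 11.45) in EupTs66Yah without the low-spread array. Dynlt1b lay between 10.77 and 11.43 (median 11.05) in Ts66Yah, against 10.73 to 11.30 (median 11.02) in EupTs66Yah without that array. The 2 groups covered nearly the same range for both copies. Dynlt1c lay between 10.97 and 11.64 (median 11.23) in Ts66Yah, against 10.90 to 11.37 (median 11.20) in EupTs66Yah, again without that array. Dynlt1f lay between 11.51 and 12.05 (median 11.77) in Ts66Yah, against 11.47 to 12.03 (median 11.73) in EupTs66Yah without the low-spread array. At most 3 of 24 Ts66Yah embryos were above the highest EupTs66Yah embryo for any copy.

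With all arrays, 0 of 10 genes were called in Ts66Yah and 0 had an unadjusted p under 0.05 in limma, in a comparison that called 0.171% of all probe sets, 0.162% as higher and 0.00901% as lower. The copies differed by 0.15 ± 0.14 (Dynlt1a), 0.12 ± 0.11 (Dynlt1b), 0.18 ± 0.14 (Dynlt1c) and 0.21 ± 0.18 (Dynlt1f) (SE). The low-spread array set much of these values, since it held 8.20 for Dynlt1a, 8.56 for Dynlt1b, 8.01 for Dynlt1c and 7.27 for Dynlt1f. Without it the comparison called 0.932% of all probe sets (0.757% as higher, 0.176% as lower) and still 0 of the 10 genes. The log2 changes were then 0.018 ± 0.037 for Dynlt1a, 0.021 ± 0.049 for Dynlt1b, 0.048 ± 0.044 for Dynlt1c and 0.029 ± 0.043 for Dynlt1f. Their 95% intervals reached at most 0.14 (Dynlt1c). The mean of the copies was 11.38 ± 0.14 in Ts66Yah and 11.35 ± 0.11 in EupTs66Yah without the low-spread array, a difference of 0.029 ± 0.037 (permutation p = 0.433). With all arrays this difference was 0.17 ± 0.14 (permutation p = 0.217).

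The Ts65Dn effect minus the Ts66Yah effect was tested in 1 fit. Only Ts65Dn carries extra Dynlt1 copies, so the lines differ in their copy number by design. They also come from different colonies with different array means, and the part of this in the difference was not tested. With all 89 arrays the fit called 0.00901% of probe sets and 0 of the 10 genes, and Dynlt1b had a difference of 0.33 ± 0.13 (adjusted p = 0.66 in limma). Without the low-spread array it called 0.149% of probe sets (0.135% as higher, 0.0135% as lower), among them all 4 Dynlt1 copies. The differences were then 0.29 ± 0.058 for Dynlt1a (adjusted p = 0.0038), 0.43 ± 0.071 for Dynlt1b (9.3e-05), 0.36 ± 0.067 for Dynlt1c (0.00086) and 0.36 ± 0.065 for Dynlt1f (0.00071), all in limma. With all arrays 0 copies passed in the unweighted fit of the deposited values, 4 passed with array weights and 2 after quantile normalization within the colony.

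The copies sit among other genes of the extra Mmu17 part, most of which passed the test in the same direction. Of 18 neighbours, 12 passed the test as higher in Ts65Dn (against 0.459% of all probe sets), 0 passed as lower, and 17 had a higher mean. Their median log2 change was 0.40, against a median of -0.0021 over all probe sets. Ezr, which encodes the membrane-cytoskeleton linker ezrin, was 0.56 ± 0.056 higher (adjusted p = 4.4e-09 in limma). Zdhhc14, a palmitoyltransferase gene, was 0.53 ± 0.075 higher (adjusted p = 6.3e-06 in limma), and Gtf2h5, a subunit of the transcription and repair factor TFIIH, was 0.48 ± 0.059 higher (adjusted p = 3.4e-07 in limma). Rsph3a, Tmem242, Arid1b, Tulp4, Serac1, Tagap1, Tmem181a, Tmem181b-ps and Fndc1 also passed, with changes of 0.32 to 0.48. The 6 neighbours that did not pass were Sytl3 (-0.14), Tagap (0.12), Synj2 (0.18), Rsph3b (0.29), Tmem181c-ps (0.38) and Snx9 (0.42). The 4 copies, at 0.31 to 0.45, lay inside the range of the neighbours that passed, apart from Dynlt1a, which was just below Tagap1 at 0.32. In Ts66Yah 0 of the 18 neighbours passed, with the low-spread array (0.171% of all probe sets called) or without it (0.932%). Their median change was 0.12 with all arrays, with 15 of 18 higher, against 0.043 over all probe sets. Without the low-spread array it was -0.013, with 8 of 18 higher.

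**Figure D4:**
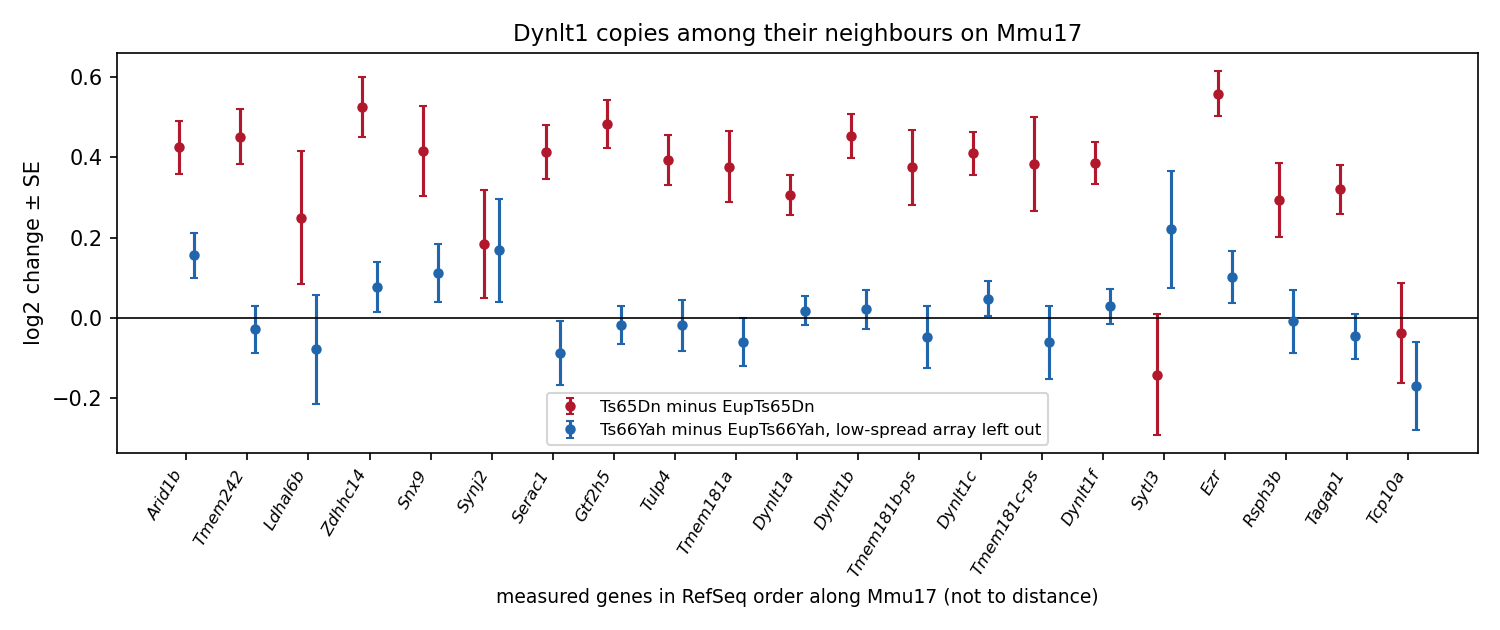
Log2 change ± SE (vertical axis), trisomic minus euploid, of 21 measured genes in RefSeq order along Mmu17 (horizontal axis, order and not distance), the 4 Dynlt1 copies among them. In Ts65Dn 19 of 21 have a higher mean and 14 pass the test, Sytl3 and Tcp10a being the genes with lower means. In Ts66Yah without the low-spread array 0 pass.

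None of the 6 other chains passed the test in Ts65Dn. The comparison called 0.491% of all probe sets, so 0 calls among 6 genes is close to that share. Dynlt3, the second Tctex-type light chain, lay between 7.30 and 8.14 (median 7.78) in Ts65Dn, against 7.31 to 8.17 (median 7.82) in EupTs65Dn. Its log2 change was -0.016 ± 0.069 (SE), with a 95% interval from -0.16 to 0.12. Dynll1 and Dynll2 encode the LC8 light chains, which also act as dimerization hubs for many proteins outside dynein. Dynll1 lay between 10.27 and 10.82 (median 10.53) in Ts65Dn, against 10.27 to 10.71 (median 10.56) in EupTs65Dn, a change of 0.014 ± 0.046. Dynll2 lay between 7.17 and 8.34 (median 7.62) in Ts65Dn, against 6.78 to 7.81 (median 7.53) in EupTs65Dn. Its change of 0.15 ± 0.086 was the largest among the 6 and did not pass (adjusted p = 0.91 in limma), with a 95% interval from -0.025 to 0.32. Within litters Dynll2 was higher in Ts65Dn in 4 of 6, with differences from -0.31 to 0.53.

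Dynlrb1, the roadblock light chain, lay between 10.86 and 11.23 (median 11.08) in Ts65Dn, against 10.76 to 11.19 (median 11.03) in EupTs65Dn. The change was 0.052 ± 0.040, with a 95% interval from -0.030 to 0.13. Dync1h1, the heavy chain that holds the motor domain, lay between 9.48 and 9.96 (median 9.69) in Ts65Dn, against 9.33 to 10.03 (median 9.65) in EupTs65Dn, a change of 0.045 ± 0.053. Dync1i1, an intermediate chain enriched in neurons, lay between 6.66 and 7.81 (median 7.26) in Ts65Dn, against 6.81 to 7.71 (median 7.26) in EupTs65Dn, a change of -0.032 ± 0.084. The groups overlapped for all 6 genes, and the number of Ts65Dn embryos above the highest EupTs65Dn embryo ran from 0 of 23 (Dynlt3 and Dync1h1) to 5 of 23 (Dynll2). Apart from that of Dynll2, the 95% intervals ended between 0.11 (Dynll1) and 0.15 (Dync1h1), and none of the 6 reached 0.58.

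**Figure D5:**
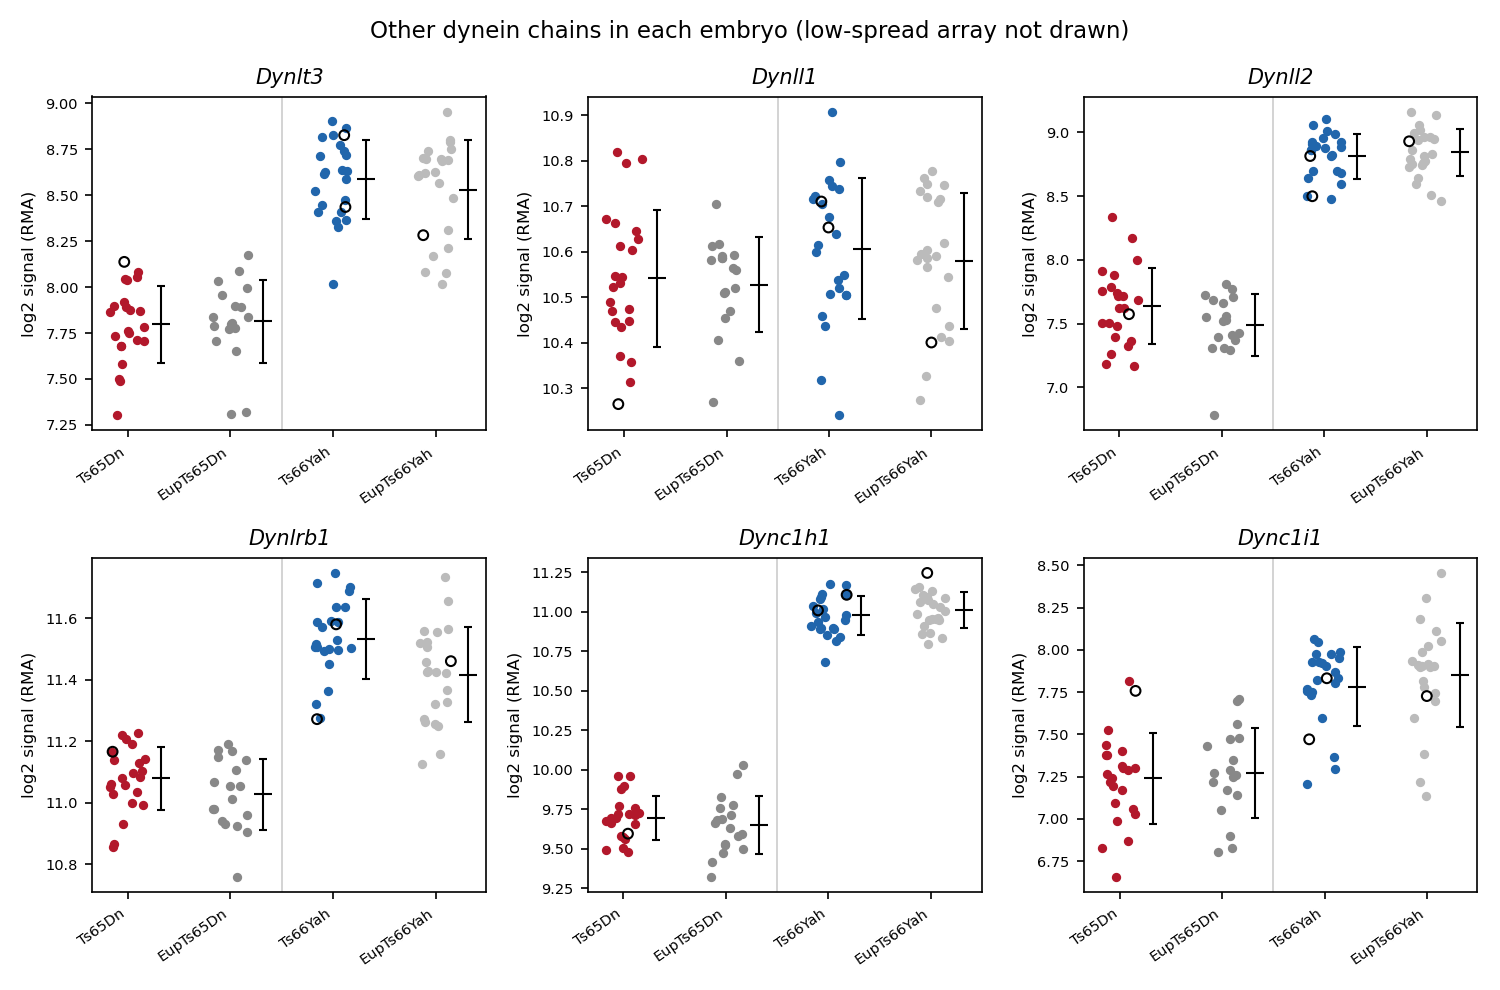
RMA log2 signal (vertical axis) of the 6 other dynein chains in every embryo of the 4 groups, with the mean and SD beside the points, open circles for the 4 arrays at the Mmu16 level of the other genotype, and the low-spread array not drawn. Trisomic and euploid embryos of a colony overlap in each panel. Levels should not be compared between colonies or between panels.

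In Ts66Yah the other chains did not pass the test either. That comparison called 0.171% of all probe sets with all arrays and 0.932% without the low-spread array. Dynlrb1 was closest: it lay between 11.27 and 11.75 (median 11.52) in Ts66Yah, against 11.13 to 11.73 (median 11.42) in EupTs66Yah without the low-spread array. Its change was then 0.12 ± 0.045, with an unadjusted p of 0.0124 and an adjusted p of 0.27 in limma, and 20 of 24 Ts66Yah embryos were above the EupTs66Yah median. With all arrays it was 0.28 ± 0.16.

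The remaining chains overlapped between the groups of this colony, taken without the low-spread array. Dynlt3 lay between 8.02 and 8.90 (median 8.62) in Ts66Yah, against 8.02 to 8.95 (median 8.62) in EupTs66Yah. Dynll1 lay between 10.24 and 10.91 (median 10.63) in Ts66Yah, against 10.27 to 10.78 (median 10.59) in EupTs66Yah. For Dynlt3, 0 of 24 Ts66Yah embryos were above the highest EupTs66Yah embryo, and for Dynll1 2 of 24 were. Dynll2 lay between 8.48 and 9.11 (median 8.86) in Ts66Yah, against 8.46 to 9.16 (median 8.83) in EupTs66Yah. Dync1h1 lay between 10.69 and 11.18 (median 10.98) in Ts66Yah, against 10.80 to 11.25 (median 11.003) in EupTs66Yah. Dync1i1 lay between 7.20 and 8.06 (median 7.83) in Ts66Yah, against 7.14 to 8.45 (median 7.90) in EupTs66Yah. No Ts66Yah embryo was above the highest EupTs66Yah embryo for Dynll2, Dync1h1 or Dync1i1. Without the low-spread array Dynlt3 differed by 0.056 ± 0.071, Dynll1 by 0.027 ± 0.047, Dynll2 by -0.030 ± 0.055, Dync1h1 by -0.032 ± 0.039 and Dync1i1 by -0.068 ± 0.080 (SE). Dync1h1 was at 5.29 and Dynll1 at 5.93 on the low-spread array, against at least 10.80 and 10.27 on the other EupTs66Yah arrays. With all arrays their changes were 0.21 ± 0.23 and 0.22 ± 0.19.

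No difference of the genotype effect between labelled sexes passed the test. The interaction of sex and genotype called 0 of 22206 probe sets in either colony by limma, with 941 and 931 at an unadjusted p under 0.05 in the Ts65Dn and Ts66Yah colonies, and 0 of the 10 genes among them. For the Dynlt1 copies it was 0.062 ± 0.11 (Dynlt1c) to 0.14 ± 0.11 (Dynlt1b) in the Ts65Dn colony. Y-linked genes went against the sex label in 4 Ts65Dn, 4 EupTs65Dn, 2 Ts66Yah and 7 EupTs66Yah arrays, which limits this comparison. Without those arrays, in a fit that was not planned, the interaction called 0 probe sets in either colony.

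Among embryos of the same group, the 4 copies varied together. After each group's mean was removed, the 6 pairs of copies had Pearson's r of 0.70 to 0.85 and Spearman's rho of 0.60 to 0.82 over 41 arrays of the Ts65Dn colony. The permutation p was at most 1e-05 for r, also after adjustment over the 6 pairs, and at most 9e-05 for rho. Leaving out, for each pair, the 2 arrays farthest from the median of its first copy gave r of 0.65 to 0.78. Without replicate 18 alone, r was 0.67 to 0.82 and rho 0.61 to 0.81 over 40 arrays. Over 47 arrays of the Ts66Yah colony, where the copies are not triplicated, r was 0.78 to 0.86 and rho 0.75 to 0.90 (permutation p at most 1e-05), and r was 0.74 to 0.84 without the 2 farthest arrays. Arrays share litters, and probe sets of the copies may share targets, so these are not independent readings of 4 genes.

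Ranked by r over all named probe sets at or above the median signal (10150 in the Ts65Dn colony, 10131 in the Ts66Yah colony), the 3 genes most like a copy were the other copies, with 1 exception. For Dynlt1f in the Ts65Dn colony, the third place went to Sod1, the superoxide dismutase gene on Mmu16 (r = 0.77 over 41 arrays, 0.71 without replicate 18). Without replicate 18 the third places of Dynlt1b and Dynlt1c also went to other genes, Vstm2b (r = 0.74) and Cox4i1 (r = 0.72). The other chains had no dynein gene among their 3 most similar genes over these arrays. Without the 3 Ts66Yah colony arrays at the Mmu16 level of the other genotype, Dync1li2, a light intermediate chain gene, came first for Dync1i1 (r = 0.74 over 44 arrays). Dynlt3 was most like Tfb2m in the Ts65Dn colony (r = 0.76) and Hnmt in the Ts66Yah colony (r = 0.76), Dync1h1 most like Chd3 (r = 0.77) and Hectd4 (r = 0.65), and Dync1i1 most like Mks1 (r = 0.58) and Cnbp (r = 0.74). Dynll1 was most like Lamtor5 (r = 0.59) and Ppa1 (r = 0.73), Dynll2 most like Ccz1 (r = 0.63) and Id4 (r = 0.62), and Dynlrb1 most like Ppcs (r = 0.59) and Spcs1 (r = 0.68).

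The rest of the dynein machinery was measured through lists of its parts, and none of their genes passed in Ts65Dn. The comparison called 0.491% of all probe sets, so 0 calls in lists this short is close to that share. Of 4 further dynein 1 subunits 0 passed, and Dync1li1, a light intermediate chain, had the smallest p with a change of -0.050 ± 0.051. Of 10 genes of dynactin, the complex that dynein needs for long runs, 0 passed and 5 had a higher mean. Dctn5, a subunit of its pointed end, was at 0.056 ± 0.034. Of 20 regulators and adaptors 0 passed, with Cenpf, a kinetochore protein that binds dynein regulators, at -0.28 ± 0.12 (adjusted p = 0.81 in limma). Of 4 dynein 2 genes, which serve transport in cilia, 0 passed and 4 had a lower mean, with Dync2li1 at -0.15 ± 0.069 (adjusted p = 0.83 in limma). Of 13 axonemal dynein genes 0 passed, and of 3 further Tctex family genes 0 passed. The medians of these lists were -0.050 to 0.023.

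In Ts66Yah 0 genes of these 6 lists passed, with the low-spread array (0.171% of all probe sets called) or without it (0.932%). Their medians without it were -0.065 to -0.010. The list members with the smallest p there were Dnah7a, an axonemal heavy chain, at 0.27 ± 0.085 (adjusted p = 0.16 in limma) and Bicdl1, an adaptor, at 0.15 ± 0.053 (adjusted p = 0.21 in limma).

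Markers of other cell types gave few differences beside these results. In Ts65Dn 0 genes of 8 marker lists passed, in a comparison that called 0.491% of all probe sets. The smallest p was that of the neuronal gene Map2, at -0.58 ± 0.17 (adjusted p = 0.21 in limma), while the list of 7 neuronal markers had a median of -0.027. Midbrain and hindbrain markers had a median of 0.14 with 6 of 7 higher, and dividing cell markers a median of -0.090 with 5 of 6 lower. In Ts66Yah without the low-spread array 1 marker passed, Aurkb of dividing cells, at 0.23 ± 0.063 (adjusted p = 0.092 in limma). That comparison called 0.932% of all probe sets. There the marker lists with the largest medians were midbrain and hindbrain (0.14, 5 of 7 higher), endothelium (0.13, 5 of 6 higher), dividing cells (0.12, 4 of 6 higher) and neurons (0.099, 7 of 7 higher). The part of these markers in the dynein results was not tested.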

How the data were processed

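Labelled RNA from 1 forebrain per embryo was hybridised to 1 array. The authors deposited log2 probe set signals made by RMA, per the submitters' processing notes, which corrects background, normalizes by quantiles and summarises probes. The sources used here give no version or settings of RMA and no genome build, and do not state whether the colonies were normalized together. Summarised array signals can understate fold changes. Gene symbols came from the platform annotation, and 19572 of 22206 probe sets had 1 symbol.

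No filter on signal was applied, and 0 columns of values lacked a sample. The test was limma 3.58.1 (lmFit and eBayes in R 4.3.3), with p-values adjusted by Benjamini-Hochberg across the 22206 probe sets and called under 10%. The fit was checked on simulated data with independent noise, which held no litter effect and no low-spread array. Copy means and differences between copies were compared by permutation with 100000 resamples, in Python 3.11.15. Figures were drawn with matplotlib 3.10.9. Embryos are the replicates, and the number of arrays limits the precision. All members are named in the text. The rule for the other lists was to name genes past the threshold, or else the gene with the smallest p. The smallest p was not named for every list. In Ts65Dn no axonemal dynein or further Tctex family gene is named, and of the marker lists only Map2. In Ts66Yah only Dnah7a and Bicdl1 are named from the dynein lists. The 6 Mmu17 neighbours that did not pass, and Tcp10a in the Mmu17 plot, are named beyond that rule, after their values were seen. Likeness was ranked by r, and of the 3 highest genes per member the first, or the exception, is printed.

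The members, lists and tests were chosen with earlier results of these data known. Alternatives were the litter as a replicate block, sex in the model, the methods' t-test, a threshold of 0.05, filters at the median and the lower quartile of signal, quantile normalization within a colony, median centring, array weights, a robust trended prior, and leaving out each litter or the arrays that stood apart. The marginal criterion of the series takes p below 0.01 where the ratio is below 0.8 or above 1.2. Litter marks the dam, per the labels. Within a colony, deviations from group means correlated with a mean r of 0.048 for arrays of the same litter and -0.037 for others in the Ts65Dn colony, and of 0.038 and -0.030 in the Ts66Yah colony. The series text counts 25 Ts66Yah arrays, while 24 are labelled so; the labels were followed.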

Additional observations from a re-analysis of the deposited data

Results flagged for a closer look

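The trisomic minus euploid change of the 4 Dynlt1 copies differed between the lines in the test of the difference itself. This held once the low-spread array, EupTs66Yah replicate 16, was left out. The copies are extra only in Ts65Dn, so the lines differ in their copy number by design. They also come from different colonies with different array means, and the part of this in the difference was not tested. The Ts65Dn effect exceeded the Ts66Yah effect by 0.29 for Dynlt1a, 0.43 for Dynlt1b, 0.36 for Dynlt1c and 0.36 for Dynlt1f on the log2 scale, with limma adjusted p of 0.0038, 9.3e-05, 0.00086 and 0.00071. With all arrays, 0 of the 4 passed in the unweighted fit of the deposited values, while 4 passed with array weights and 2 after quantile normalization within the colony. Groups held more than 10 embryos, so no embryo was tested as an outlier.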

How the results depend on the processing

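In the Ts65Dn comparison the 4 Dynlt1 copies, and no other member, were called under all 18 alternatives, with log2 changes of 0.27 to 0.34 for Dynlt1a, 0.43 to 0.47 for Dynlt1b, 0.39 to 0.44 for Dynlt1c and 0.36 to 0.42 for Dynlt1f. The copy mean was 0.36 to 0.42 with 1 litter left out. In the Ts66Yah comparison 0 members were called under all 20 alternatives, and the copy mean was 0.051 to 0.23 with 1 litter left out. With the litter as a replicate block the copies changed by 0.30, 0.45, 0.40 and 0.39 in Ts65Dn (Dynlt1a, b, c and f), and 117, 31 and 2 probe sets were called in the Ts65Dn, Ts66Yah and difference fits. With all arrays this block changed no member's call in these 3 fits or in the sex interaction. Without the low-spread array the difference of effects called the 4 copies and 0 other members both with the block (29 probe sets in all) and without it; the fit with the block was chosen after seeing the data.

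The difference of effects called 0 members with all arrays and 4 with array weights, without the low-spread array (also with the other arrays that stood apart left out) or without litter WT18, which holds that array, and 2 (Dynlt1b and Dynlt1c) after quantile normalization. Leaving out single litters gave 0 to 4. Counts over all probe sets moved more. For Ts65Dn the marginal criterion gave 246, against 109. For Ts66Yah, against 38, they were 63 with the median filter, 158 with array weights, 207 without the low-spread array, 156 with the litter block added, 326 without the other arrays that stood apart as well, 472 by the marginal criterion, and 15 to 88 without single litters. For the difference, against 2, they were 1 at 0.05, 8 after quantile normalization, 29 with array weights, 33 and 34 without the arrays that stood apart, 312 by the marginal criterion and 1 to 27 without single litters.

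Only values that had not passed changed sign. In Ts65Dn, Dynlt3 was 0.011 and Dynll1 -0.0054 under the litter block, and without single litters Dynlt3 ran from -0.078 to 0.027, Dynll1 from -0.0042 to 0.032 and Dync1i1 from -0.081 to 0.047. In Ts66Yah, Dynlt1b was -0.012 and Dynll2 -0.11 after quantile normalization. Dynll2 was also -0.044 centred, -0.0084 with array weights, -0.030 without the low-spread array, -0.032 with the block added and -0.012 without all arrays that stood apart, and -0.035 to 0.045 without single litters. Dync1h1 was -0.028, -0.032, -0.019 and -0.028 with array weights, without the low-spread array, with the block added and without all such arrays, and -0.038 to 0.29 without single litters. In the difference, Dynlt3 was 0.0023 and Dync1h1 0.050 with the block and without the low-spread array, Dynll1 was 0.0057 with array weights and 0.014 without all such arrays, Dync1h1 was 0.073, 0.077 and 0.078 with weights, without the low-spread array and without all such arrays, and without single litters Dync1h1 ran from -0.25 to 0.083 and Dync1i1 from -0.024 to 0.10. The cause was not tested. The sex interaction called 0 members under every alternative run. Between the copies in Ts65Dn, the same 4 of 6 pairs passed 10% after quantile normalization and without replicate 18.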
